A study of Mus musculus with 12 samples.

Results

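The 4 Smad1/5 knockout (KO) libraries of a mouse embryonic stem cell RNA-seq series were compared as 2 pairs, KO 1 with KO 2 against KO 3 with KO 4. The members were selected on the likeness of the libraries in these same counts, so the comparison between them is a description and carries no test and no p-value. These 4 libraries are part of a series of 12. All 4 carried the genotype Smad1/5 -/- on a mixed CD-1, 129/Ola, C57Bl/6 strain background and were grown in 2i + Lif on gelatin. The same background and culture held for the 2 floxed libraries, Smad1/5 fl/fl, here called FL 1 and FL 2, which keep both genes and took no part in forming the pairs. The other 6 libraries came from BRE-GFP reporter cells of mixed CBA, C57Bl/6 strain, sorted into 3 negative and 3 positive samples after culture in FCS + Lif on feeders. They are given only as an outside range. By the series design, knockout and floxed cells came from 2 parental lines, each giving 1 FL and 2 KO samples. The labels do not say which line each library came from, so none was assigned, and whether a pair holds the cells of 1 line cannot be read from them. Nor do they say how the knockout was made, from which clones, or at which passage each culture was taken. The design text calls the KO samples biological replicates without saying what was grown separately, so the spread inside a pair may be partly technical.

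BMP ligands bind receptor kinases that phosphorylate SMAD1, SMAD5 and SMAD9. These join SMAD4, enter the nucleus and bind target genes, among them the Id genes, which code for inhibitors of differentiation factors. The 2i medium holds inhibitors of MEK and GSK3 and, with LIF, keeps mouse embryonic stem cells in a naive state, in which DNA methylation is low and many germline genes are active. Imprinted genes are known to vary between cultures kept in it.

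The targeted genes were read in every library. Smad1 had 427, 619, 489 and 373 reads in KO 1 to KO 4, and 643 and 665 in FL 1 and FL 2. For Smad5 the counts were 880, 893, 1176 and 1046 in the KO libraries and 1136 and 1153 in the FL libraries. Reads from outside a deleted segment are counted as well, and the labels do not say which segment was removed, so these counts do not check the labels. Neither gene separated the pairs: the log2 difference of KO 3 and 4 minus KO 1 and 2 was -0.30 for Smad1 and 0.28 for Smad5. SMAD4, the shared partner, was even across the 4 libraries, with Smad4 at 80.9, 84.6, 82.0 and 84.8 CPM (counts scaled to the library's size after TMM, trimmed mean of M values, correction).

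The libraries held 30117843 to 37319846 counted reads in the 4 KO samples, and 33272807 and 35736653 in FL 1 and FL 2. On log2 CPM over the 15215 genes compared, Pearson's r was 0.9896 between KO 1 and KO 2, 0.9946 between KO 3 and KO 4, and 0.983 to 0.9853 between libraries of different pairs. The pairs were chosen because their libraries are most alike, so these values restate that choice. Between KO 1 and KO 2, 1801 genes (11.8%) differed by 1.5-fold or more, and between KO 3 and KO 4, 1033 genes (6.79%) did. KO 3 and KO 4 were thus the closer pair. Their counts still differed by more than counting noise, with a median chi-square of 1.22 per gene, so they were kept as separate libraries.

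A gene was called apart where the nearest libraries of both pairs were at least 1.5-fold from each other, that is, the lowest of the higher pair against the highest of the lower pair. By that rule 356 genes (2.34% of those compared) were higher in KO 3 and KO 4 and 418 genes (2.75%) were lower. Mean differences over 2-fold were reached by 230 of the higher and 257 of the lower genes. The median log2 difference over all genes compared was -0.01. Without any gap, the pairs did not overlap in 4054 genes (26.6%) with KO 3 and KO 4 higher and in 4674 genes (30.7%) with them lower. Just inside the limit, at a nearest fold of 1.5 to 1.6, lay 196 genes, and just outside, at 1.4 to 1.5, lay 342. Leaving out 1 library loosens the rule, since its pair then has 1 value. The higher genes then numbered 740 without KO 1, 983 without KO 2, 629 without KO 3 and 563 without KO 4. The lower genes numbered 797, 844, 743 and 723 in the same order. In bulk RNA, fewer cells expressing a gene and less RNA per cell cannot be told apart.

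The FL libraries gave a reading that the choice of pairs did not use. Over all genes compared, 931 (6.12%) were at least 1.5-fold higher in FL 1 than in FL 2 and 888 (5.84%) were at least 1.5-fold higher in FL 2. Of the 356 genes higher in KO 3 and KO 4, 174 (48.9%) were at least 1.5-fold higher in FL 2 and 15 (4.21%) in FL 1. Of the 418 genes lower in KO 3 and KO 4, 190 (45.5%) were at least 1.5-fold higher in FL 1 and 8 (1.91%) in FL 2. Together, the FL difference ran in the direction of the pairs in 364 of the 774 genes apart and against it in 23, and stayed within 1.5-fold in 387. This says which FL library was higher, not which pair each lay near. By nearness to the pair means, FL 1 was nearer to KO 1 and KO 2 and FL 2 nearer to KO 3 and KO 4 in 128 (36.0%) of the higher and 152 (36.4%) of the lower genes, against 17.3% of all genes. The reverse held in 18 and 15 genes. Both FL libraries were nearer to KO 1 and KO 2 in 131 (36.8%) of the higher and 213 (51.0%) of the lower genes, against 46.5% of all genes. With 1 library each, the FL difference has no replicate check. Across all 15215 genes, the KO pair difference and the FL difference, which share no library, had a Pearson's r of 0.50, given as a description since genes are not independent. Leaving out any 1 KO library brought the share of higher genes that followed FL 2 to between 30.8% and 41.0%, and that of lower genes that followed FL 1 to between 31.5% and 38.0%.

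**Figure D1:**
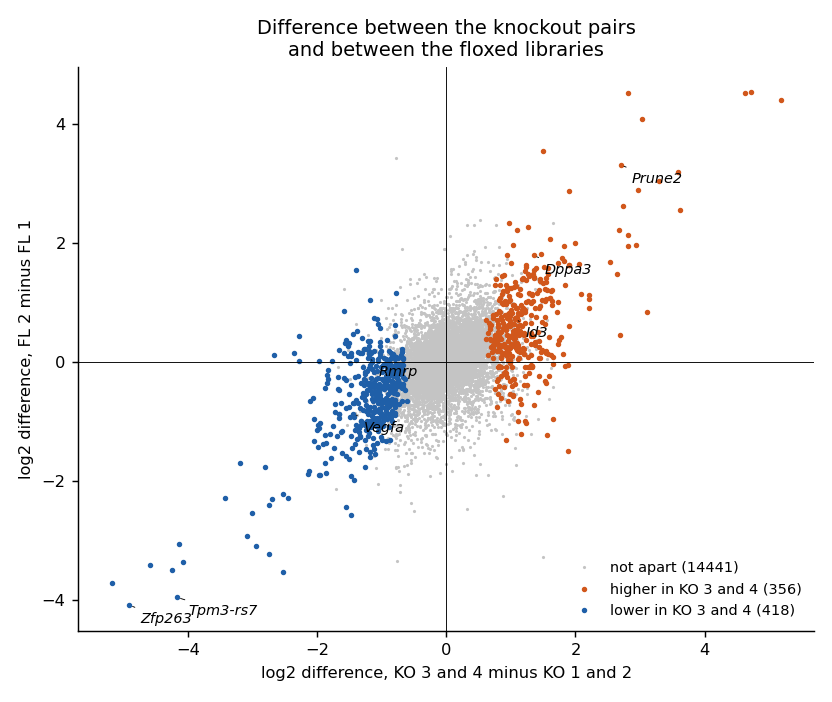
Each point is 1 of the 15215 genes compared, with the log2 difference of the mean of KO 3 and 4 minus that of KO 1 and 2 on the x axis and the log2 difference of FL 2 minus FL 1 on the y axis. The 356 higher (orange) and 418 lower (blue) genes lie mostly in the upper right and lower left corners, and Rmrp is among the lower genes near 0 on the y axis.

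Among genes whose log2 CPM averaged 2 or more, leaving out pseudogenes, predicted genes and repeats of a family, the widest gaps upwards belonged to Prune2, Kif1a and Stk31. Prune2, which codes for a protein expressed in nerve tissue, stood at 3.09 and 2.89 CPM in KO 1 and KO 2, 20.2 and 19.3 CPM in KO 3 and KO 4, and 2.10 and 21.3 CPM in FL 1 and FL 2. Its log2 difference was 2.70, with 2.62 to 2.78 over the 4 comparisons of single libraries. Prune2 lies on chromosome 19 from 16956118 to 17223932 (GRCm38), and its neighbour Gcnt1, a glycosyltransferase gene, was also apart, with a log2 difference of 1.19. Kif1a, a motor protein of axonal transport, read 2.26 and 2.00 CPM in KO 1 and KO 2 against 14.0 and 13.7 in KO 3 and KO 4, and 3.02 and 14.2 in FL 1 and FL 2. For Stk31, a germ cell kinase, the values were 1.53, 2.67, 14.7 and 17.1 CPM in KO 1 to KO 4 and 4.17 and 16.4 CPM in the FL libraries. In all 3 genes FL 1 sat near the lower pair and FL 2 near the higher pair. The log2 difference was 2.67 for Kif1a and 2.93 for Stk31. Nrk, an X-linked kinase gene, and Ngfr, the low-affinity nerve growth factor receptor gene, followed at log2 differences of 2.05 and 1.64.

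Dppa3 codes for STELLA, a maternal factor that guards DNA methylation in the early embryo and marks naive cells and germ cells. It had 18.5 and 17.8 CPM in KO 1 and KO 2 and 47.1 and 45.5 CPM in KO 3 and KO 4. FL 1, at 18.9 CPM, matched the lower pair, and FL 2, at 65.2 CPM, lay above both pairs. The log2 difference was 1.35 (1.30 to 1.41 over single libraries). Ptp4a3, a phosphatase gene, Serpine2, a secreted protease inhibitor gene, and Plbd1 were the other single-copy genes among the 12 widest gaps upwards, at log2 differences of 1.32, 1.32 and 1.23. Rpl29 (1.34), Rpl26 (1.23) and Hist1h4i (1.35) complete that set. Their counts are uncertain, since ribosomal protein pseudogenes and the copies of the histone H4 gene share sequence with them. All 12 genes were at least 1.5-fold higher in FL 2 than in FL 1.

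Downwards, within the same limits, the largest gap belonged to Zfp263, a zinc finger transcription factor gene on chromosome 16 from 3744093 to 3750790. Its values were 43.2 and 37.7 CPM in KO 1 and KO 2, 1.70 and 0.97 CPM in KO 3 and KO 4, and 32.8 and 1.87 CPM in FL 1 and FL 2. The reporter cells, of another strain, had 47.2 to 54.0 CPM. Zfp263 was thus near 0 in 3 of these 12 libraries, KO 3, KO 4 and FL 2. The log2 difference was -4.91 (-5.39 to -4.42 over single libraries).

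Tpm3-rs7, an intronless copy of the tropomyosin gene Tpm3, read 67.3, 66.1, 3.94 and 3.40 CPM in KO 1 to KO 4 and 67.3 and 4.27 CPM in FL 1 and FL 2. Tpm3 itself went the other way, at 198, 184, 287 and 278 CPM in the KO libraries and 182 and 279 CPM in the FL libraries. Summed over both genes, the values were 266, 250, 291 and 281 CPM in KO 1 to KO 4, a far narrower range than that of the copy. Reads that fit both copies make the split between them uncertain. Gene copies were frequent at the extreme: of the 19 genes apart by a log2 difference of at least 3 either way, 9 (47.4%) were annotated as pseudogenes, against 4.8% of all genes compared. Among them, named after their values were seen, Gm7658 had 16.9 and 20.2 CPM in KO 1 and KO 2 against 1.19 and 0.91 in KO 3 and KO 4. Rpl17-ps5 showed the reverse, at 0.43 and 0.31 CPM in KO 1 and KO 2 against 9.69 and 11.2 CPM in KO 3 and KO 4. FL 1 and FL 2 differed by at least 1.5-fold in the direction of the pairs in all 19 of these genes.

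The other genes with the widest gaps downwards code for proteins of varied roles. Igfbp4, which binds insulin-like growth factors, had 8.23, 11.6, 1.78 and 1.52 CPM in KO 1 to KO 4 and 32.5 and 6.95 CPM in FL 1 and FL 2. FL 1 lay above every KO library, and FL 2 lay between the pairs. Gadd45a, a stress gene linked to DNA demethylation and growth arrest, stood at 17.0, 12.9, 3.78 and 4.37 CPM in KO 1 to KO 4 and 21.7 and 5.88 CPM in FL 1 and FL 2. Its log2 difference was -1.85 (-2.16 to -1.55). Dysf, which codes for the membrane repair protein dysferlin, A2m, a protease inhibitor gene, and Invs, a ciliary gene, were lower by log2 differences of -1.62, -1.79 and -1.42. Tmem180 had -1.81. Of the 12 widest gaps downwards, 11 were at least 1.5-fold higher in FL 1 than in FL 2. Mir1949 was the exception, a short locus on the snoRNA class list of the annotation, with 27.5 and 30.6 CPM in FL 1 and FL 2 and 36.9, 38.7, 12.7 and 14.4 CPM in KO 1 to KO 4.

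**Figure D2:**
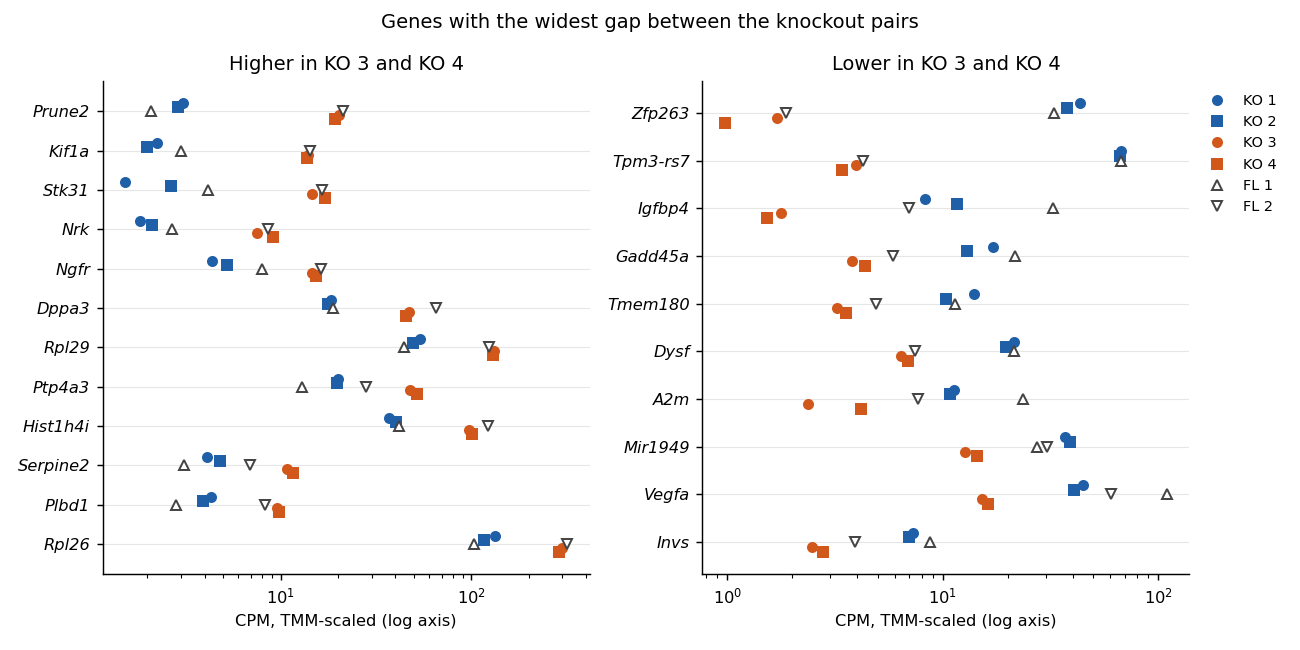
CPM on a log axis for the 12 genes with the widest gap upwards and 10 of those downwards, 1 row per gene, with KO 1 and 2 in blue, KO 3 and 4 in orange, and FL 1 and 2 as open triangles. In the right panel Zfp263 and Tpm3-rs7 show the widest separation, and FL 2 sits with KO 3 and KO 4 in both.

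Of 13 measured BMP-SMAD targets, 1 was apart, higher, and 0 were lower, against 2.34% and 2.75% of all genes, with a list median of -0.26. The pairs did not overlap in 3 of the 13 with KO 3 and KO 4 higher and in 7 with them lower, against 26.6% and 30.7% of all genes. The gene apart was Id3, with 311, 533, 914 and 843 reads in KO 1 to KO 4 and 139 and 248 reads in FL 1 and FL 2. As CPM, Id3 stood at 10.3, 14.8, 24.7 and 27.3 in the KO libraries and at 4.0 and 6.62 in the FL libraries. Both FL libraries were below all KO libraries, and KO 1 and KO 2 lay between them and the other pair. The log2 difference was 1.07 (0.73 to 1.4 over single libraries). Its relatives were not apart: Id1 had 5.51, 5.39, 6.10 and 6.8 CPM in KO 1 to KO 4, and Id2 had 3.02, 4.14, 4.56 and 5.92 CPM. Smad7, an inhibitory SMAD gene, and Dusp9, a phosphatase of ERK that responds to BMP, had log2 differences of -0.30 and -0.39. None of the 17 measured BMP ligands, receptors and antagonists was apart, and their median was 0.11. Neither were the 16 genes of the NODAL-activin list (median -0.27), the 19 of the FGF-ERK feedback list (median 0.33), the 14 WNT targets (median 0.14) or the 15 LIF-STAT3 genes (median -0.07).

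Pluripotency genes were close between the pairs. None of the 12 core factors was apart. Nanog read 424, 405, 417 and 398 CPM in KO 1 to KO 4, Pou5f1 read 917, 825, 896 and 880 CPM, and Zfp42 read 582, 569, 579 and 553 CPM. Of 20 naive-state genes, Dppa3 was apart and higher (5%, against 2.34% of all genes) and 19 were not apart, with a median of -0.16. Among 17 primed epiblast genes 0 were apart, yet 15 lay above 0 and their median was 0.27, against -0.01 over all genes. The de novo methyltransferase Dnmt3b, for example, had 373, 448, 560 and 569 CPM in KO 1 to KO 4 and 259 and 303 CPM in FL 1 and FL 2. In the DNA methylation list, 2 of 23 genes were higher (8.7%, against 2.34% of all genes). They were Dppa3 and the thymine DNA glycosylase gene Tdg (log2 difference 0.61), which just met the limit at a nearest fold of 1.501. Gadd45a was lower (4.35%, against 2.75% of all genes).

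Among the 31 lists with a measured member, hypoxia and glycolysis had the most members apart in 1 direction. Hypoxia-inducible factors bind short sites beside genes of glycolysis, oxygen sensing and vessel growth and switch them on when oxygen is low. Of 26 such genes measured, 5 were apart, all lower in KO 3 and KO 4 (19.2%, against 2.75% of all genes), and 25 lay below 0. The list median was -0.39. In 23 of the 26 the pairs did not overlap and KO 3 and KO 4 were lower, against 30.7% of all genes. The floxed libraries showed the same order: 25 of the 26 were lower in FL 2 than in FL 1. Of these, 6 were lower by at least 1.5-fold, and the list's median log2 difference, FL 2 minus FL 1, was -0.35. Over all genes compared, 6951 of 15215 were lower in FL 2, 6.12% by at least 1.5-fold, with a median of 0.02. Both FL libraries lay above all 4 KO libraries in 12 of the 26, a count given without the share over all genes.

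The start regions of the 5 genes are shown because these genes were lower together. They come from RefSeq (GRCm38.p6), run from 250 bases before to 50 bases after the first start listed for each gene, and carry the letters ACGTG and GCGTG, on either strand and overlapping where they do, in capitals.
Bnip3, chr7:138909457-138909756, minus strand: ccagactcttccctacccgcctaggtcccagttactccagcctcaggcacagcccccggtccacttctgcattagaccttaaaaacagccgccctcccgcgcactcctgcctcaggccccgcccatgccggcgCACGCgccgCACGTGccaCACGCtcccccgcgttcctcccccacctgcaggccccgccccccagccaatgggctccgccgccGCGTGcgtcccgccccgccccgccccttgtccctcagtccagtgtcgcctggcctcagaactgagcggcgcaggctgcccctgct
Aldoc, chr11:78322823-78323122, plus strand: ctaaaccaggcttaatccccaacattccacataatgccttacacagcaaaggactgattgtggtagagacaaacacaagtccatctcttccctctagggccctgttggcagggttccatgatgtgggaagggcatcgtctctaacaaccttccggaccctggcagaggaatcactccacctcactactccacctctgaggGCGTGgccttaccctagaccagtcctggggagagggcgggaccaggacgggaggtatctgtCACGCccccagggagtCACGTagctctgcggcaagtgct
Egln3, chr12:54203825-54204124, minus strand: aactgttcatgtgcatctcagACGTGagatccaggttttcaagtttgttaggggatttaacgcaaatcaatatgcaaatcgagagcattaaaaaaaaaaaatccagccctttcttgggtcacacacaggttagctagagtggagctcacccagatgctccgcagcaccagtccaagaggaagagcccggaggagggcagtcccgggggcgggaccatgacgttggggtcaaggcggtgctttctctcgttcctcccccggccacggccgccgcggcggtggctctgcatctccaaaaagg
Vegfa, chr17:46032328-46032627, minus strand: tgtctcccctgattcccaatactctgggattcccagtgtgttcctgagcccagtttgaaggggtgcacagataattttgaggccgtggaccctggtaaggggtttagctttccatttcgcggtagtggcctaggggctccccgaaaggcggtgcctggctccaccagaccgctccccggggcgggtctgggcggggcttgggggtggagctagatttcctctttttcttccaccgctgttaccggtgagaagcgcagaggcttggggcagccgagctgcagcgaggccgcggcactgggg
Eno2, chr6:124769624-124769923, minus strand: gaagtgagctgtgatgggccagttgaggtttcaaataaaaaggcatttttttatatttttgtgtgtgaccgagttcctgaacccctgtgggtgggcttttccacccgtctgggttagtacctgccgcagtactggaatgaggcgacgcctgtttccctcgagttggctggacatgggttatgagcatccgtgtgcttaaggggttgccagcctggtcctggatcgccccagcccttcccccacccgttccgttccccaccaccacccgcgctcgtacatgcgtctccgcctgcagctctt
Bnip3 had 5 matches, Aldoc 3 and Egln3 1, and the windows of Eno2 and Vegfa had 0. Such matches are common: 43.8% of 27025 promoters of this length held at least 1, as did 17 of the 24 list members with an entry (70.8%). The matches are letters in a window and do not show that a factor was bound.

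Vegfa, the vascular endothelial growth factor gene, had 45.0, 40.8, 15.3 and 16.2 CPM in KO 1 to KO 4 and 110 and 60.1 CPM in FL 1 and FL 2. Its log2 difference of -1.44 (-1.55 to -1.34) was the list's largest. Egln3, an oxygen-sensing prolyl hydroxylase gene, read 18.2, 25.0, 7.80 and 10.3 CPM in the KO libraries and 48.5 and 19.5 CPM in the FL libraries. Bnip3, a mitophagy receptor gene, read 57.0, 78.1, 32.0 and 33.4 CPM and 161 and 106 CPM. In these 3 genes FL 1 was the highest of the 6 libraries and KO 3 the lowest. Aldoc and Eno2, which code for the brain forms of aldolase and enolase, had log2 differences of -1.06 and -1.03. The widely used glycolytic enzymes shifted less: Pgk1 went from 411 and 426 CPM in KO 1 and KO 2 to 286 and 301 CPM in KO 3 and KO 4, and Gapdh from 636 and 681 to 596 and 627 CPM. Slc2a3, the glucose transporter GLUT3 gene, had 1175, 825, 588 and 562 CPM in KO 1 to KO 4, below the 1.5-fold limit only through KO 2. Ankrd37 was the single member above 0, at 0.34.

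**Figure D3:**
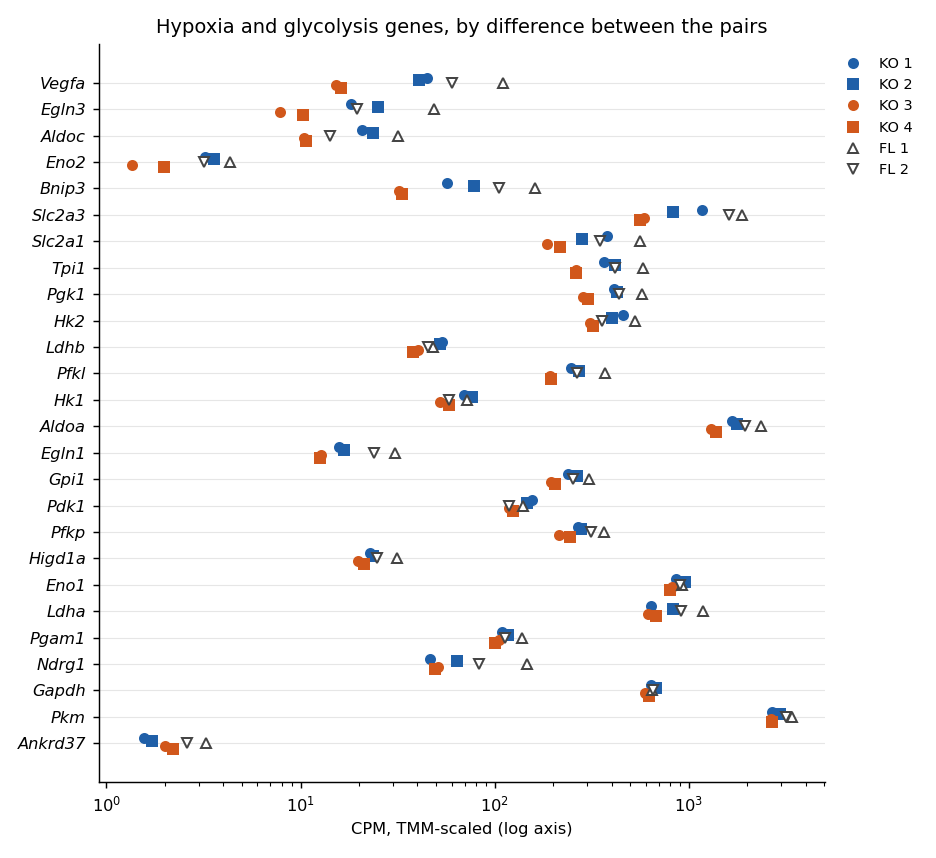
CPM on a log axis for the 26 hypoxia and glycolysis genes measured, ordered by the log2 difference between the pairs, with KO 1 and 2 in blue, KO 3 and 4 in orange, and FL 1 and 2 as open triangles. The orange points lie left of the blue ones in 23 genes, and FL 1 lies right of FL 2 in 25.

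Other metabolic and stress lists held fewer members apart. Of 21 immediate early and stress genes, 3 were lower (14.3%, against 2.75% of all genes): Ddit4, an inhibitor of the growth regulator mTORC1 (54.5, 54.9, 26.2 and 27.8 CPM in KO 1 to KO 4), and Chac1 and Ddit3, targets of the unfolded protein and amino acid responses, at log2 differences of -1.18 and -0.86. FL 1 and FL 2 were alike at Chac1 (19.5 and 18.8 CPM) and Ddit3 (16.1 and 17.9 CPM). Of 23 cholesterol synthesis and uptake genes 0 were apart, though 19 lay below 0 (median -0.23). The pairs did not overlap in 17 of the 23 with KO 3 and KO 4 lower, against 30.7% of all genes. In 1 they did not overlap with KO 3 and KO 4 higher, against 26.6%. All 23 were lower in FL 2 than in FL 1, against 6951 of the 15215 genes compared. In the p53 target list, 1 of 21 was apart, higher (4.76%, against 2.34% of all genes), and 18 lay above 0 with a median of 0.18. It was Perp, which codes for a membrane protein of cell adhesion and apoptosis (20.1, 16.7, 37.9 and 33.9 CPM in KO 1 to KO 4). In 14 of the 21 p53 targets the pairs did not overlap and KO 3 and KO 4 were higher, against 26.6% of all genes. In 3 they did not overlap and KO 3 and KO 4 were lower, against 30.7%. Gsto1, a glutathione transferase gene, was the only 1 of 21 redox genes apart (4.76%, against 2.34% of all genes) and was higher by 0.87. None of the 26 cell cycle genes was apart (median 0.06).

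Some germline and imprinted genes differed between the pairs and some inside a pair. Of 29 germline genes, 3 were higher (10.3%, against 2.34% of all genes) and 0 lower (against 2.75%). They were Rhox6, Rhox9 and Rhox13, neighbouring homeobox genes of the reproductive cluster on the X chromosome, between 37826910 and 38129967. Rhox6 had 2.09, 1.64, 3.75 and 4.24 CPM in KO 1 to KO 4 and 3.16 and 7.69 CPM in FL 1 and FL 2. Rhox9 had 1.86, 1.28, 3.13 and 4.40 CPM in the KO libraries and 2.96 and 7.77 CPM in the FL libraries. Rhox13 had 1.29, 1.17, 2.02 and 2.36 CPM in KO 1 to KO 4 but 3.13 and 2.14 CPM in FL 1 and FL 2, so its FL order was the opposite of that of the pairs. The Rhox genes share sequence, so reads may be split between them.

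Rhox5, of the same cluster, showed another pattern, at 48.1 CPM in KO 1 against 248, 334 and 342 CPM in KO 2, KO 3 and KO 4. FL 1 and FL 2 had 300 and 278 CPM, so KO 1 was the single low library. Fkbp6, which acts in transposon silencing in germ cells, had 2.16 CPM in KO 1 and 13.3 to 17.5 CPM in the other KO libraries. Usp26, a testis-specific ubiquitin protease gene, had 33.2 CPM in KO 1 and 155 to 190 CPM in the others. Nxf3, an RNA export factor gene of the testis, read 1.36, 6.08, 7.58 and 9.16 CPM in KO 1 to KO 4. These 4 genes were named for their differences between KO 1 and KO 2, the largest within the limits given for Prune2, and the rule for the pairs did not call them apart.

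Of 33 imprinted genes, which are expressed from 1 parental copy, 1 was higher (3.03%, near the 2.34% of all genes) and 3 were lower (9.09%, against 2.75%). Peg10, a paternally expressed gene derived from a retrotransposon, had 68.2, 158, 256 and 263 CPM in KO 1 to KO 4 and 102 and 161 CPM in the FL libraries. KO 1 was the lowest, and the log2 difference of 1.32 ran from 0.71 to 1.93 as single libraries were left out. Phlda2 and Slc22a18, neighbours on chromosome 7 between 143473736 and 143503150, were lower. Phlda2, a brake on placental growth, had 22.2, 22.8, 5.48 and 12.8 CPM, and Slc22a18 had 8.40, 6.89, 1.83 and 3.40 CPM. At both, KO 3 was lower than KO 4, as it was at Cdkn1c, a cell cycle inhibitor gene of the same domain (13.1, 20.6, 8.28 and 25.1 CPM), and at Grb10 (118, 87.5, 27.3 and 63.0 CPM), an adaptor gene on chromosome 11. FL 1 and FL 2 were within 1.5-fold of each other at all 4. Ddc, an enzyme gene beside Grb10, was lower in both KO 3 and KO 4 (4.16 and 3.85 CPM against 8.30 and 9.78), with 13.2 and 6.12 CPM in FL 1 and FL 2. Meg3, a maternally expressed long RNA, was not apart, at 142, 116, 162 and 171 CPM in KO 1 to KO 4.

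Xist, the RNA that coats the inactive X chromosome, had 44, 145, 294 and 199 reads in KO 1 to KO 4 and 89 and 163 reads in FL 1 and FL 2. As CPM this was 1.46, 4.03, 7.93 and 6.44 in the KO libraries, a log2 difference of 1.53 (0.82 to 2.24 as single libraries were left out), with KO 1 the lowest. The Y-linked genes Ddx3y, Eif2s3y, Kdm5d and Uty had 0 to 1 read in each of the 6 libraries. X-linked genes as a whole did not shift, with a median log2 difference of -0.04 over 349 protein-coding genes.

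**Figure D4:**
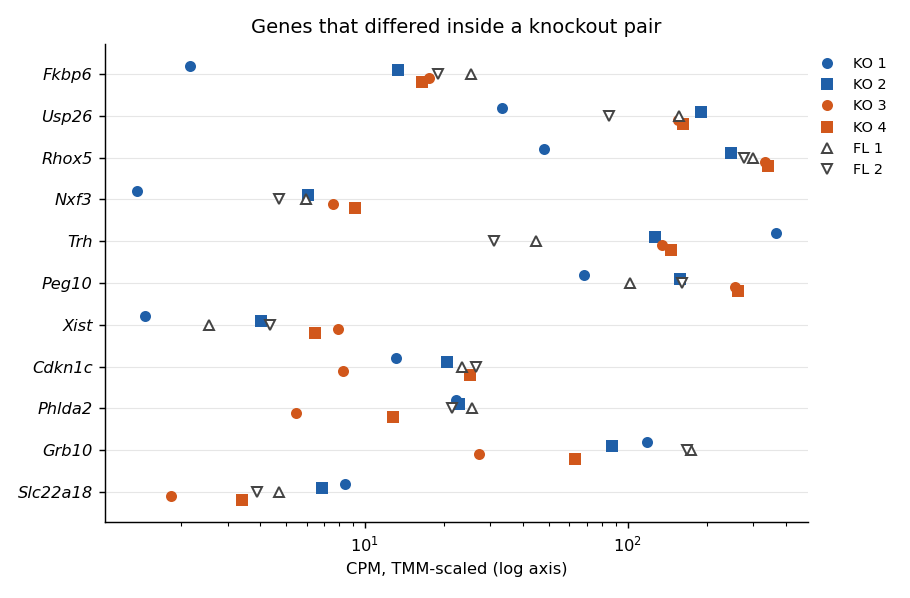
CPM on a log axis for 11 genes that differed inside a knockout pair, 1 row per gene, with KO 1 and 2 in blue, KO 3 and 4 in orange, and FL 1 and 2 as open triangles. KO 1 stands left of the other 3 KO libraries at Fkbp6, Usp26, Rhox5 and Nxf3 and right of them at Trh, and KO 3 is the lowest at Cdkn1c, Phlda2, Grb10 and Slc22a18.

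At the small structured RNAs that separated the pairs, the floxed libraries mostly lay within 1.5-fold of each other, as they did at most genes compared. These are the short RNAs of splicing (snRNA), of ribosomal RNA processing and modification (snoRNA) and of snRNA modification (scaRNA). The set also holds RNAs such as Rn7sk, which holds back transcription elongation, and Rmrp, the RNA of an endonuclease that cuts precursor ribosomal RNA. Of 249 measured, 37 (14.9%) were lower in KO 3 and KO 4, against 2.75% of all genes, and 7 (2.81%) were higher. The share lower was larger among the abundant ones: with a mean of at least 10 CPM, 15 of 31 (48.4%) were lower and 0 higher, with a median of -0.62. Under 10 CPM, 22 of 218 (10.1%, against 2.75% of all genes) were lower, 7 were higher and the median was 0.06. The set was selected after its values were seen.

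The following small RNAs were likewise named after their values were seen. Rmrp had 5532 and 5843 CPM in KO 1 and KO 2, 2079 and 2892 CPM in KO 3 and KO 4, and 5061 and 5261 CPM in FL 1 and FL 2. Rn7sk had 8749, 7905, 4500 and 4829 CPM in KO 1 to KO 4 and 7291 and 7660 CPM in the FL libraries. Snora73b, a snoRNA, read 157, 167, 44.5 and 71.8 CPM, and 122 and 131 CPM in FL 1 and FL 2. In all 3, FL 1 and FL 2 lay together near KO 1 and KO 2. Over the 37 lower small RNAs, both FL libraries were nearer to KO 1 and KO 2 in 30 (81.1%), against 46.5% of all genes. FL 1 and FL 2 differed by less than 1.5-fold in 34 (91.9%), close to the 88.0% of all genes. Among all 418 lower genes that share was 52.6%. Summed, the 249 small RNAs took 2.23% and 2.22% of all counted reads in KO 1 and KO 2. They took 1.15% and 1.38% in KO 3 and KO 4, and 2.11% and 2.14% in FL 1 and FL 2.

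**Figure D5:**
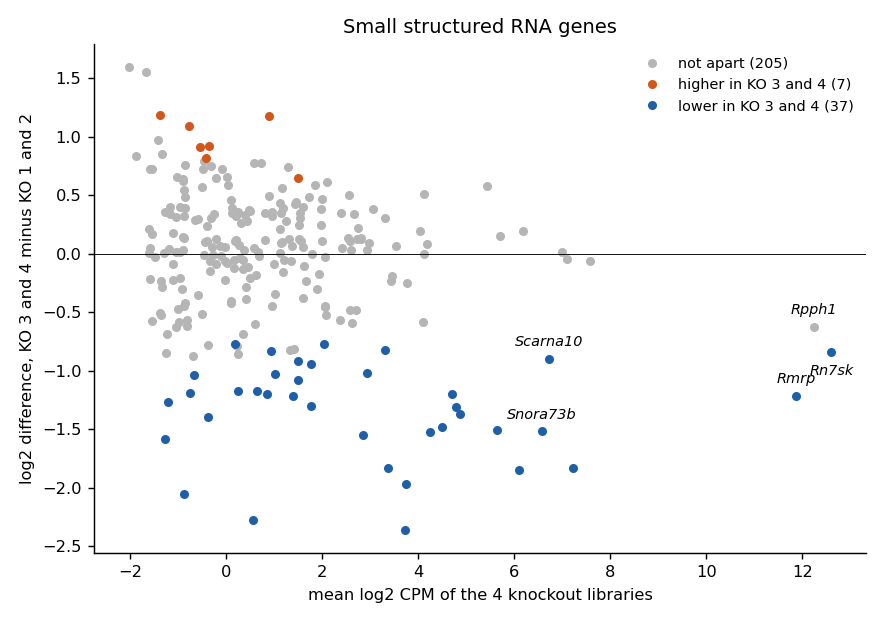
Each point is 1 of 249 small structured RNA genes, with the mean log2 CPM of the 4 KO libraries on the x axis and the log2 difference of KO 3 and 4 minus KO 1 and 2 on the y axis. The 37 lower genes are blue and the 7 higher ones orange, and the 3 most abundant, Rn7sk, Rpph1 and Rmrp, all lie below 0, Rpph1 short of the limit.

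Genes of other lineages were few and low. Of 16 primitive endoderm genes, Cubn was higher (6.25%, against 2.34% of all genes) and Sox17, Hnf4a and Srgn were lower (18.8%, against 2.75%), with Hnf4a at 5.94, 6.92, 3.72 and 3.76 CPM in KO 1 to KO 4 and the other 3 under 1.5 CPM in every KO library. Wnt3 and Kdr, of 10 primitive streak and mesoderm genes, were higher (20%, against 2.34% of all genes) but stayed under 1 CPM in every KO library. Genes of the rare state resembling cells of the cleaving embryo lay above 0 in 15 of 15, with a median of 0.63, and KO 2 was the lowest KO library in 14 of them. Without KO 2, 6 of 15 lay above 0 and the median was -0.02. Zscan4d, for example, had 3.52, 0.64, 3.91 and 3.50 CPM in KO 1 to KO 4. The pairs did not overlap in 3 of the 15, against 26.6% of all genes. Apart were 2, Tdpoz4 and AA792892, both higher (13.3%, against 2.34% of all genes). Both were under 1 CPM in the KO libraries, belong to families of near-identical copies and are uncertain. In 14 of the 15, both FL libraries were above all 4 KO libraries, again without a share over all genes to set beside it. The 8 neurectoderm and 11 trophectoderm genes held none apart. In all, 16 of the 31 lists with a measured member had none apart.

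The 9 measured members of the mitochondrial genome list all lay above 0 (median 0.42). Of that list, mt-Nd2, a complex I subunit gene, was the only 1 apart (11.1%, against 2.34% of all genes). It had 110, 140, 240 and 241 CPM in KO 1 to KO 4, and 116 and 119 CPM in FL 1 and FL 2. Over the whole mitochondrial chromosome, 3 of 16 genes compared were higher (18.8%) and 0 lower. Of its 7 transfer RNA genes, 2 were higher. The median over 7 mitochondrial protein-coding genes was 0.50, while KO 2 minus KO 1 gave 0.35. In the KO libraries 10.8% to 13.2% of all reads fell on mt-Rnr2, a ribosomal RNA of the mitochondrion. Nuclear chromosomes did not shift as a whole: their median log2 differences ran from -0.06 on chromosome 13 to 0.01 on chromosome 19. In the order of the genes compared, those apart in the same direction were next to each other in 48 runs of at least 2 genes, 99 genes in all. Genes not compared can lie between them, and the number of runs to be met by chance was not worked out. One run of 3, Ppm1e, Rad51c and Tex14 on chromosome 11 from 87226906 to 87555823, was lower in KO 3 and KO 4. Where neighbouring genes overlap, reads of one may be counted in the other, since no source used here gives the strand setting of the counting.

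The label of embryonic stem cells was checked against marker lists. Summed over 10 stem cell markers, the 4 KO libraries held 4680 to 5780 CPM and the FL libraries 5690 and 5710 CPM, with 0 of the 10 apart. Feeder fibroblast markers summed to 844 to 930 CPM in the KO and 653 and 715 CPM in the FL libraries, with 7 of 20 measured above the count filter, 0 apart and 4 of 20 at 0 in all KO libraries. Primitive endoderm, mesoderm and trophectoderm markers each summed to under 6 CPM. Neurectoderm markers summed to 32.2, 24.3, 47.4 and 53.4 CPM in KO 1 to KO 4, with 0 of 3 apart.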

How the data were processed

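Total RNA was depleted of ribosomal RNA and made into stranded libraries, per the labels' protocols. The authors deposited raw counts per gene for all 12 libraries and a table of TPM signal. Per the submitters' processing notes, the tools were STAR 2.4.1d and featureCounts 1.4.6, with CASAVA 1.8.2, FastQC 0.11.3 and DESeq2 1.6.3 also named, and the builds GRCm38.p4 and mm10. No source used here gives the annotation release or whether strand was used in counting. The deposited TPM signal holds 39032 entries for 38310 genes and was used only as an alternative.

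From the counts, TMM factors of the 4 KO libraries were computed in edgeR 4.0.16 (R 4.3.3), and the other libraries were scaled to a KO reference, so no other library enters a KO value. Genes were kept by edgeR's count filter (minimum count 10, minimum total 15, pair as group), which left 15215 of 39179. Differences are of mean log2 CPM with a prior count of 2, and n is 2 libraries a pair. Because the pairs were chosen on these counts, no test was run; the FL libraries, 1 each, also allow none. Coordinates and gene classes are from GENCODE M21 (GRCm38). The procedure was tested on simulated counts.

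Genes named are the 12 with the widest gap in each direction at a mean log2 CPM of at least 2 (without predicted genes, pseudogenes and repeats of a family), up to 4 genes apart per list, a fixed set of signalling and pluripotency genes, and the 4 with the largest difference inside each pair. The members, 32 lists (621 genes, 19 not found) and rules were chosen with earlier results of these data known. Alternatives covered scaling, filters, prior count, the width of the gap, TPM and each library left out. Depth was 25862573 to 37319846 counts a library. A few genes that met the naming rule are not reported here.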

Additional observations from a re-analysis of the deposited data

Results flagged for a closer look

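In 5 of 91 named genes, 1 of the 4 KO libraries lay far from the other 3. Dixon's 95% limit was used, and chance passes it in about 1 of 20 groups, close to the share seen here. Fkbp6 had 2.16 CPM in KO 1, against 13.3 to 17.5 CPM in the others. Rhox5 had 48.1 CPM in KO 1, against 248 to 342 CPM. Usp26 had 33.2 CPM in KO 1, against 155 to 190 CPM. Trh, which codes for thyrotropin-releasing hormone, had 367 CPM in KO 1, against 127 to 146 CPM. Rian, a long RNA of the Meg3 locus, had 515 CPM in KO 2, against 666 to 683 CPM. Fkbp6, Rhox5 and Usp26 were named for their difference between KO 1 and KO 2, so for them the limit restates that choice.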

How the results depend on the processing

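With RLE scaling, total counts, a prior count of 0.5 or protein-coding genes alone (256 higher, 325 lower), both counts of genes apart stayed within 1.5 times those reported. Without a count filter they were 753 higher and 667 lower. Requiring 1 CPM in 2 libraries gave 209 higher. A gap of 2-fold gave 91 higher and 125 lower, and a narrower gap gave 900 and 1119. On log2(TPM + 1) at a mean TPM of at least 1 the lower genes numbered 152, on log2(TPM + 0.1) 242, and on log2(TPM + 1) with no filter 158, while the higher genes numbered 273, 447 and 290. With either TPM filter, 281 of the 774 genes apart were not compared. Leaving out single libraries, which loosens the rule, gave 563 to 983 higher and 723 to 844 lower. The hypoxia genes lower numbered 1 with a 2-fold gap and 12 with the narrower gap, and 4 to 7 otherwise. The share of higher genes that followed FL 2 was 55.5% at 1 CPM in 2 libraries, 56.0% for protein-coding genes of mean log2 CPM of at least 2, and 30.8% to 41.0% without single libraries. That of lower genes that followed FL 1 was 31.5% to 38.0% without single libraries. The protein-coding alternatives, and leaving single libraries out of the list of the cleaving embryo, were chosen after seeing the data. Of the values of named genes under alternatives, 668 stayed within 1 SD inside the pairs and 46 moved. Leaving 1 library out of a pair of 2 cannot move a value beyond that SD. Those values were thus bound to count as staying and say nothing about stability. Among the 52 named genes apart 0 of 405 values changed sign, and among the 39 not apart 21 of 309 did, in 13 genes. For a gene apart, leaving out 1 library cannot change the sign, by the rule for the pairs. The contrast between these sets therefore partly restates that rule. Without KO 1, Trh went from -0.62 to 0.15, and without KO 3 Cdkn1c went from -0.18 to 0.61. Genes under 1 CPM rest on few reads, so their differences are imprecise. No paired analysis was made: the KO numbers pair no samples across the groups compared, and the labels do not give the parental line of each library.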
